A study of Mus musculus with 5 samples.

Results

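Peaks of p300 and c-Jun binding were examined at 3 loci named for the cytokine-response genes Socs3, Pim1 and Nfil3, in MS5 cells, an established line of mouse bone marrow stromal cells. The loci were windows of mouse build mm9: chromosome 11, 117.76 to 117.89 Mb, for Socs3; chromosome 17, 29.55 to 29.69 Mb, for Pim1; and chromosome 13, 53.00 to 53.14 Mb, for Nfil3. A listed peak belonged to a window when its centre lay inside it, which took 96 of 83829 peaks: 40 at Socs3, 34 at Pim1 and 22 at Nfil3. The windows were selected on their counts of listed peaks, so these counts are a description and support nothing by themselves. Chromatin immunoprecipitation followed by sequencing gave 4 libraries from cells at passage 11: p300 with TGF-β1 plus pioglitazone, p300 with TGF-β1 alone, c-Jun with TGF-β1 plus pioglitazone and c-Jun with TGF-β1 alone. Every library shared 5 h of TGF-β1 at 10 ng/mL, and pioglitazone was given at 20 ng/mL, so no group shows cells without TGF-β1. "With" and "without" below refer to pioglitazone. Each group was 1 library, so no difference has a replicate check and no test was made. A pooled input completes the 5 samples and was not used here.

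Cytokines of the interleukin-6 family signal through receptor-bound JAK kinases, which phosphorylate STAT transcription factors, and the STATs switch on a set of early response genes. Socs3 encodes a suppressor of cytokine signalling that binds receptor and JAK and shuts the pathway off. Pim1 encodes a serine/threonine kinase that favours survival and growth, and Nfil3, also called E4BP4, encodes a basic leucine zipper repressor with roles in immune cell development and the circadian clock. p300 is a histone acetyltransferase found at active enhancers and promoters, and c-Jun pairs with other leucine zipper proteins to form AP-1. TGF-β1 drives fibroblasts to make matrix, and pioglitazone activates the nuclear receptor PPARγ. By its title, the series concerns PPARγ agonists in models of myelofibrosis, in which fibrous tissue replaces bone marrow.

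The sequences of the 3 gene starts are shown because these genes give the windows their names. Each is the 250 bases before the first RefSeq start of the gene in GRCm38.p6, written 5′ to 3′ along the gene, with motif matches in capitals: Socs3 at chr11:117969367-117969616 on the minus strand, Pim1 at chr17:29490535-29490784 on the plus strand and Nfil3 at chr13:52981040-52981289 on the minus strand.
Socs3: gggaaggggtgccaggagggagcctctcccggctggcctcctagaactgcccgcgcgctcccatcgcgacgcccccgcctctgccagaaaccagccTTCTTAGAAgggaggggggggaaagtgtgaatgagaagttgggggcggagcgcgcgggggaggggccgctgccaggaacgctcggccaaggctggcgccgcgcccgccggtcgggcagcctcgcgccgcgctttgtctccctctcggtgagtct
Pim1: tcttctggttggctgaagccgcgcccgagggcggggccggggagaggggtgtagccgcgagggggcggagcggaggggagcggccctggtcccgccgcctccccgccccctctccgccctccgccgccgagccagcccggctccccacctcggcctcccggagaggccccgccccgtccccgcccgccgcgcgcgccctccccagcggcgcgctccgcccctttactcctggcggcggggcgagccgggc
Nfil3: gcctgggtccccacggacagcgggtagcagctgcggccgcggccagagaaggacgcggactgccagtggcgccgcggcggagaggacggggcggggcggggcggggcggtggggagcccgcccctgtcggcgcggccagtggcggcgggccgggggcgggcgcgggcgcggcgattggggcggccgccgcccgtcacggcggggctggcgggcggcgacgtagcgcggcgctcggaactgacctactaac
The letters searched, on both strands, were TGANTCA (AP-1), TGACGTCA (CRE), TTCNNNGAA (STAT), TTACGTAA (NFIL3 and C/EBP) and the direct repeat of the PPAR motif with 1 base between. One match was found in these 3 stretches, TTCTTAGAA of the STAT motif, 154 to 146 bases before the Socs3 start. The same motif was held by 7.02% of 32851 promoter stretches of the same length. The other motifs were held by 6.75% (AP-1), 1.55% (CRE), 0.113% (NFIL3 and C/EBP) and 0.0335% (PPAR) of those stretches. A second RefSeq start of Pim1 had no match. GC content was 71.6% before Socs3, 82.4% before the first Pim1 start and 81.6% before Nfil3, against a median of 52.4% over all stretches. Before the second Pim1 start it was 48.0%. A match describes letters only, and a missing match says nothing of a factor. These sequences are of a later build than the peaks, so no peak was placed on them, and the assignment of each window to its gene was not checked against an mm9 annotation. In the GRCm38 gene order the protein-coding neighbours are Tha1 and Pgs1 for Socs3, Fgd2 and Tmem217 for Pim1, and Auh and Ror2 for Nfil3. A peak in a window may therefore serve a neighbour.

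The deposited lists give no height for a peak, and the row position was used to describe it. The lists held 21994 p300 peaks with pioglitazone and 31466 without, and 13325 c-Jun peaks with and 17044 without. Rows ran in blocks, and inside each block chromosome name and start only ascended. There were 558 and 781 such blocks in the p300 lists with and without pioglitazone, and 398 and 432 in the c-Jun lists. The blocks that held the 96 peaks had 3 to 287 rows, so 2 peaks of the same block cannot be ranked. No source used here states what the rows were sorted by. Without a known sequencing depth, unequal depth or enrichment of the libraries cannot be told apart from unequal binding.

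A peak listed with pioglitazone is called gained when no peak of the same antibody without it overlaps it by at least 1 bp, and a peak listed without pioglitazone is called lost when none with it does. Across the 3 windows p300 had 24 peaks with and 32 without pioglitazone, and c-Jun had 20 in each. Of the 24 p300 peaks with pioglitazone 6 were gained (25%), where 26.9% were gained over the whole list, and of the 32 without it 14 were lost (43.8%), where 48.9% were lost over the whole list. For c-Jun 8 of 20 were gained (40.0%, whole list 41.6%) and 8 of 20 were lost (40.0%, whole list 54.3%). Pooled over the windows, these shares were near or below those of the whole lists, which are not matched for list depth. Matched for depth in 10% steps, the lost p300 shares add to 3.82 at Socs3, 4.27 at Pim1 and 1.43 at Nfil3. There 6, 7 and 1 were lost. The gained p300 shares add to 2.29, 0.797 and 0.957, where 5, 0 and 1 were gained. For c-Jun the lost shares add to 3.68, 3.87 and 1.44 (4, 3 and 1 lost). Its gained shares add to 2.31, 1.53 and 3.28 (3, 0 and 5 gained). Over the full lists, the Socs3 window had similar totals in both treatments with some peaks gained and some lost, the Pim1 window had fewer peaks with pioglitazone and none gained, and the Nfil3 window had more c-Jun peaks with it.

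**Figure D1:**
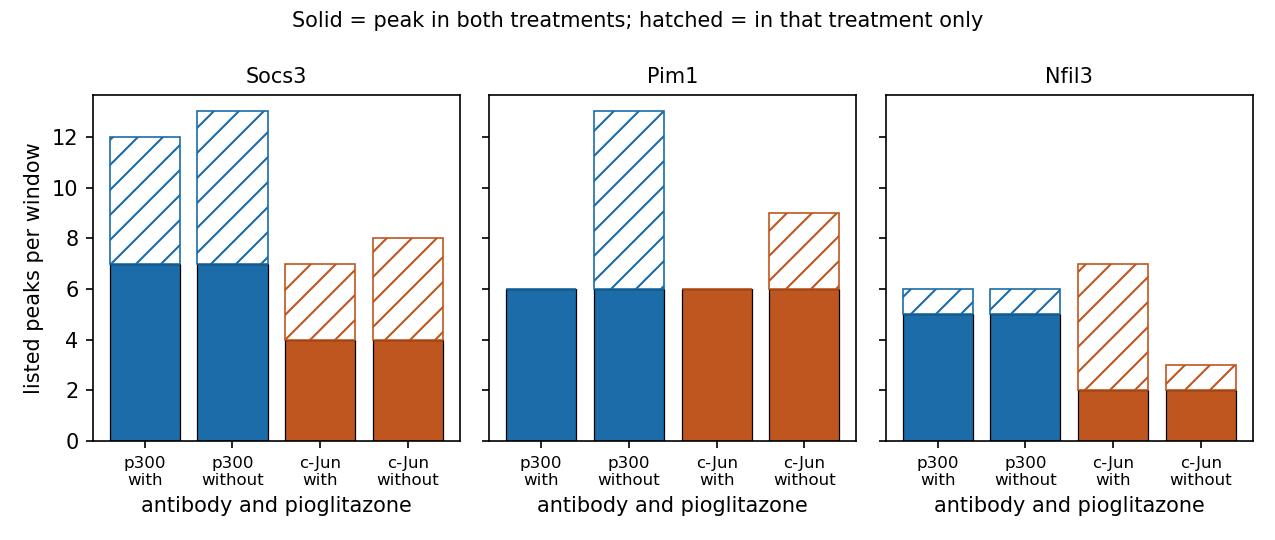
Listed peaks per window (vertical axis, count) for each antibody with and without pioglitazone, 1 library per bar, with the solid part overlapping a peak of the same antibody in the other treatment and the hatched part in that treatment only. At Pim1 the bars with pioglitazone are solid at 6 peaks for both antibodies, and at Nfil3 the c-Jun bar with pioglitazone reaches 7, against 3 without.

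The Socs3 window had p300 at 12 positions with and 13 without pioglitazone, and c-Jun at 7 with and 8 without. Over the full lists the totals were alike, but 7 p300 peaks were common to both treatments, 5 were gained and 6 were lost. For c-Jun 4 were common, 3 gained and 4 lost. The shares of c-Jun gained (42.9%, whole list 41.6%), c-Jun lost (50%, whole list 54.3%) and p300 lost (46.2%, whole list 48.9%) were near those of the whole lists. Matched for list depth in 10% steps, however, the lost p300 shares add to 3.82 for 13 peaks, where 6 were lost. For c-Jun the matched shares add to 3.68 where 4 were lost and to 2.31 where 3 were gained. The gained p300 share was 41.7% (exact Clopper-Pearson 95% interval 15.2 to 72.3, counting error only), where the whole list had 26.9%. Gained p300 peaks stood at 19.9% to 84.9% of the way down their list, and at the same list depths, taken in 10% steps, the shares of gained peaks add to 2.29 for 12 peaks, where 5 were found. In the first 50% of rows 2 of 7 p300 peaks were gained, and the p300 counts were 7 with and 11 without. Neighbouring p300 peaks lay 7.65 kb apart at the median with pioglitazone and 6.54 kb without it. In the first 50% of rows of each list the c-Jun counts turned round, with 7 with and 5 without.

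Binding was listed in all 4 libraries at 2 Socs3 sites. The site at 117802798 to 117803110 held the p300 peaks at position 2023 with and 2718 without pioglitazone and the c-Jun peaks at 1974 with and 1037 without. It carried the first-placed c-Jun peak of the window in both treatments. At 117848444 to 117848712, positions were lower, with p300 at 12954 with and 15874 without and c-Jun at 6074 with and 8613 without. The first-placed p300 peak of the window, at position 1737 with and 2187 without, lay at 117840819 to 117841136. c-Jun was listed there without pioglitazone only, at position 10052.

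Listed peaks at Socs3 differed between the treatments in several ways. At 117830368 to 117830646 p300 and c-Jun were both listed with pioglitazone only, at positions 6416 and 3543. Their centres lay 48 bp apart. The nearest p300 peak without pioglitazone was 6817 bp away, and the nearest c-Jun peak without it, the lost peak at 117829159 to 117829407 (position 6414), was 1202 bp away. Such a site, gained by both antibodies, made up 0.700% of 44718 merged sites of the series and was found at Socs3 alone among the 3 windows. c-Jun was also gained at 117811056 to 117811406 (position 3241), over a p300 peak present in both treatments, and lost at 117807750 to 117807998 (position 4746), likewise over a p300 peak present in both. The centres of these c-Jun peaks were 3299 bp apart, so c-Jun was listed at neighbouring p300 sites in the 2 treatments. At the list depths of these peaks, 28.0% of c-Jun peaks with pioglitazone and 39.1% without had no match in the other treatment. Whether binding moved between the sites was not tested. The third gained c-Jun peak, at 117856694 to 117856928 (position 6075), overlapped no p300 peak.

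For p300 alone, the first-placed gained peak was at 117824858 to 117825084, position 4378 (19.9% of the list), and the first-placed lost peak at 117823593 to 117823839, position 4415 (14.0% of its list), with centres 1255 bp apart. After the site shared with c-Jun, the next gained p300 peak was at 117877160 to 117877386 (position 12158). The further lost p300 peaks nearest the list start were at 117793518 to 117793900 (position 8700), where c-Jun was listed in both treatments, and at 117818377 to 117818623 (position 8845). The last shares its block of rows with the lost peaks at positions 8846 and 8847, so these 3 cannot be ranked.

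**Figure D2:**
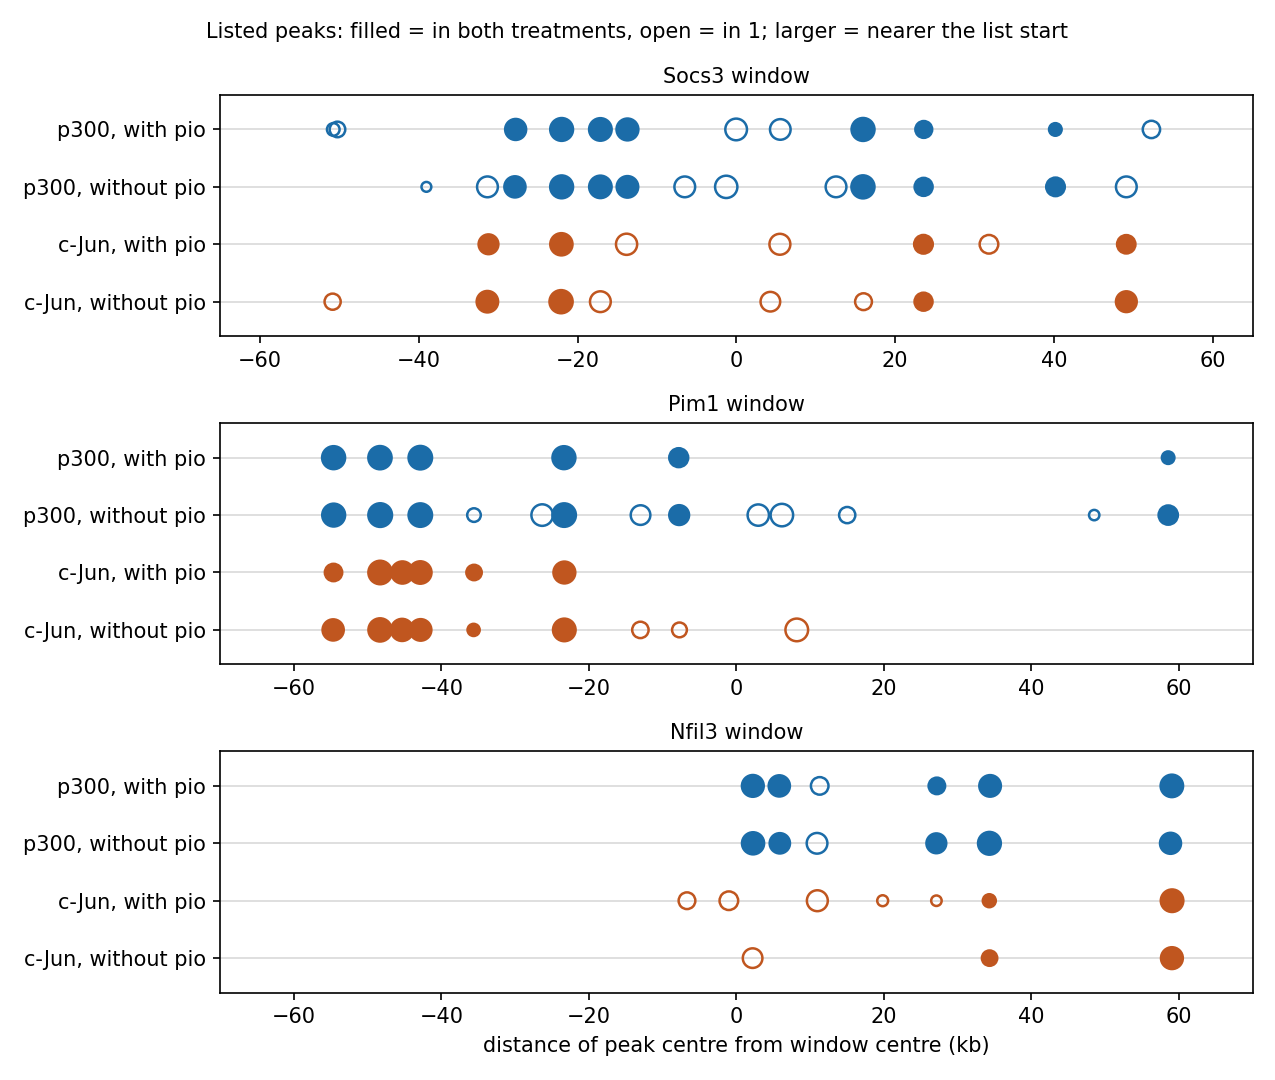
Peak positions in the Socs3, Pim1 and Nfil3 windows (horizontal axis, distance of the peak centre from the window centre in kb) in the 4 libraries, 1 row each. Filled circles overlap a peak of the same antibody in the other treatment, open circles do not, and larger circles stand nearer the start of their list. In the right part of the Pim1 window the rows without pioglitazone have open circles where the rows with it are empty.

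The Pim1 window held the first-placed p300 and c-Jun peaks of the 3 loci and the widest gap in p300 count. p300 had 6 peaks with pioglitazone and 13 without, and c-Jun had 6 with and 9 without. All 6 p300 and all 6 c-Jun peaks with pioglitazone overlapped a peak without it, so 0 were gained (upper 95% limit 45.9% for either antibody), where the whole lists had 26.9% for p300 and 41.6% for c-Jun. At the same list depths the gained shares add to 0.797 for the 6 p300 and 1.53 for the 6 c-Jun peaks, so 0 is near what the p300 list gives. At equal list lengths 1 c-Jun peak counted as gained. The lost share was 53.8% for p300 (25.1 to 80.8), against 48.9% over the whole list, and 33.3% for c-Jun (7.49 to 70.1), against 54.3%. At the same list depths the lost shares add to 4.27 for the 13 p300 peaks, where 7 were lost, and to 3.87 for the 9 c-Jun peaks, where 3 were lost. At equal list lengths, with the end of the longer p300 list removed, the counts were 6 with and 11 without.

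At Pim1 4 sites were in all lists, the most of any window. At 29571546 to 29571809 c-Jun held positions 374 with and 914 without, and p300 held 1141 with and 376 without. It carried the first-placed c-Jun peak of the window in both treatments, and the first-placed p300 peak without pioglitazone. At 29577003 to 29577298, p300 held positions 654 with and 983 without and c-Jun held 1716 with and 3602 without. This p300 peak was the first-placed of the window with pioglitazone, and its centres in the 2 lists were 0 bp apart. At 29596496 to 29596791 p300 held 1818 with and 875 without, and c-Jun 2455 with and 1962 without. At 29565182 to 29565507 p300 held 1683 with and 2755 without, and c-Jun 7342 with and 4166 without. All 8 of these p300 peaks stood in the first 10% of their lists. Between them, at 29574538 to 29574820, c-Jun was listed in both treatments, at positions 2075 with and 2696 without, with no overlapping p300 peak.

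The lost Pim1 peaks lay mostly to one side of these sites. Up to the end of the last site shared by all lists, at 29596791, p300 had 4 peaks with and 6 without pioglitazone, and c-Jun had 6 in each. Beyond it p300 had 2 with and 7 without, and c-Jun 0 with and 3 without. This division of the window was made after the values were seen. Its boundary was set by a site in all lists, so no such site can lie beyond it. The uneven counts on the 2 sides follow in part from that choice and are a description only. The first-placed lost c-Jun peak was at 29628062 to 29628310, position 1828, 10.7% of the way down its list, and c-Jun with pioglitazone was listed no nearer than 31512 bp. p300 did not overlap it, with the nearest p300 peak without pioglitazone 2012 bp away at 29626051 to 29626297. That p300 peak, at position 3837, was itself the first-placed lost p300 peak, with none with pioglitazone within 13993 bp. The next lost p300 peaks were at 29593537 to 29593783 (position 6562) and 29622843 to 29623089 (position 7166). c-Jun was further lost at 29606853 to 29607124, where p300 was lost too (positions 10554 for c-Jun and 11794 for p300), and at 29612068 to 29612408 (position 12342), where p300 was in both lists. The site at 29606853 was the only one in the 3 windows lost by both antibodies, a pattern of 4.22% of merged sites.

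The Nfil3 window had the fewest peaks and was, over the full lists, the only 1 of the 3 with more c-Jun peaks with pioglitazone than without; in the first 50% of rows Socs3 had more as well. c-Jun had 7 peaks with and 3 without pioglitazone. p300 had 6 in each, of which 5 were common. The gained c-Jun share was 71.4% (29.0 to 96.3), against 41.6% over the whole list. At the same list depths the shares of gained peaks add to 3.28 for the 7 peaks, where 5 were gained. Most of these peaks stood low, with a median position of 59.7% of the list, and in the first 50% of rows of each list c-Jun had 3 peaks with and 2 without.

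The first-placed gained c-Jun peak at Nfil3 was at 53080866 to 53081100, position 3551, which is 26.6% of the way down the list. It missed the p300 peak listed with pioglitazone (53081185 to 53081411, position 11783), whose centre was 315 bp away, and overlapped the one listed without it (53080820 to 53081066, position 8998). The 2 p300 peaks were 355 bp apart, and they were the 1 gained and 1 lost p300 peak of the window. The other first-placed gained c-Jun peaks were at 53068860 to 53069094 (position 6092) and 53063182 to 53063416 (position 7953), with no p300 peak nearer than 3257 and 8935 bp. The gained peak at 53097001 to 53097302 (position 12691) overlapped a p300 peak in both lists. The single lost c-Jun peak, at 53072074 to 53072388, was at position 6430 and overlapped p300 there, which was listed at 4125 with and 4957 without.

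In all 4 lists were the sites at 53128758 to 53129212 and 53104180 to 53104522. The site at 53128758 held the first-placed c-Jun peak of the window, at 1556 with and 3133 without, and p300 at 2775 with, the first-placed of the window, and 8130 without. Its p300 centres were 182 bp apart between the treatments, the widest shift of any of the 18 p300 peaks common to both. At 53104180 p300 held positions 4606 with and 2995 without, the first-placed p300 peak without pioglitazone, and c-Jun held 11044 with and 11752 without.

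**Figure D3:**
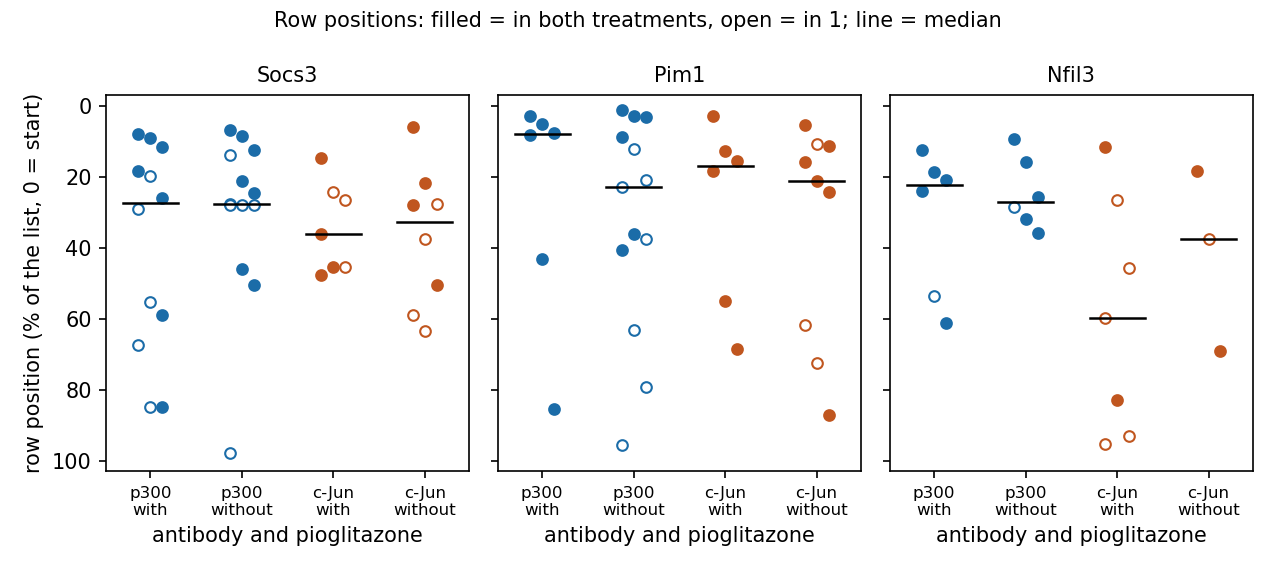
Row position of each peak as a percentage of its list (vertical axis, 0 at the start of the list) by window, antibody and treatment. Filled points were in both treatments, open points in 1, and lines are medians. The p300 peaks at Pim1 with pioglitazone have a median of 7.96%, and the c-Jun peaks at Nfil3 with pioglitazone one of 59.7%.

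Row positions show how the windows differ in their place within each list, but positions from lists of different lengths cannot show whether binding changed. Median p300 positions with and without pioglitazone were 27.5% and 27.6% at Socs3, 7.96% and 22.8% at Pim1, and 22.4% and 27.2% at Nfil3. Median c-Jun positions were 36.3% and 32.7% at Socs3, 17.0% and 21.1% at Pim1, and 59.7% and 37.7% at Nfil3. Of the 12 medians, 11 lay in the first 50% of their list. In the first 10% of rows stood 4 p300 peaks with and 4 without at Pim1, 2 with and 2 without at Socs3, and 0 with and 1 without at Nfil3. The p300 peaks common to both treatments had a median of 18.6% with and 18.5% without pioglitazone, and the lost and gained ones stood lower, at 54.5% for gained and 28.1% for lost.

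The 2 antibodies met at many of these peaks. A p300 peak overlapped 11 of 20 c-Jun peaks with pioglitazone (55.0%, whole list 55.5%), and 16 of 20 without it (80.0%, whole list 69.4%). By window the counts were 4 of 7 with and 6 of 8 without at Socs3, 4 of 6 with and 7 of 9 without at Pim1, and 3 of 7 with and 3 of 3 without at Nfil3. The share was lower with pioglitazone in each window over the full lists, but in the first 50% of rows it turned round at Pim1, with 3 of 4 with and 4 of 6 without. The exact intervals were wide, for example 18.4 to 90.1% with and 34.9 to 96.8% without at Socs3. They cover counting error only, and no group has a replicate library. Some c-Jun peaks in each window were common to both treatments, so the shares are not independent. These intervals therefore cannot compare the treatments. Seen from p300, 11 of 24 peaks overlapped c-Jun with pioglitazone (45.8%, whole list 33.7%) and 16 of 32 without (50%, whole list 37.6%). The whole-list overlap shares of either antibody are not matched for list depth, so a higher share here cannot be read as a trait of the loci. Of the 18 p300 peaks common to both treatments, 12 overlapped c-Jun without pioglitazone, and of the 14 lost ones 4 did. The whole p300 list had the same order, with 54.5% of common and 19.9% of lost peaks overlapping c-Jun.

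Merging overlapping peaks of the 4 lists gave 45 sites, 20 at Socs3, 15 at Pim1 and 10 at Nfil3. Of these, 8 were in all 4 lists, 2 at Socs3, 4 at Pim1 and 2 at Nfil3, where 12.9% of the 44718 merged sites of the series were. Sites listed in 1 library numbered 19, where 51.3% of all merged sites were of that kind. Listed with pioglitazone only were 9 sites, 5 at Socs3, 0 at Pim1 and 4 at Nfil3 (series 18.3%). Listed without pioglitazone only were 12, 5 at Socs3, 7 at Pim1 and 0 at Nfil3 (series 38.0%). Pim1 thus had sites of the second kind and none of the first, and Nfil3 the reverse, at the 1 bp overlap rule. Of the 4 Nfil3 sites, 1 was a p300 peak 355 bp from one listed without pioglitazone, shared when centres within 500 bp count. The other 3 were c-Jun peaks at 45.7%, 59.7% and 93.2% of the list. At 2 sites p300 was in both treatments and c-Jun with pioglitazone only (series 2.77%), 1 at Socs3 and 1 at Nfil3, and at 4 c-Jun was listed without it only over such a p300 site (series 7.19%), 2 at Socs3, 1 at Pim1 and 1 at Nfil3. The antibodies were listed in opposite treatments at 1 Socs3 site, with p300 listed with pioglitazone and c-Jun without (series 0.995%), and at 1 Nfil3 site, with c-Jun listed with it and p300 without (series 1.75%).

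To set the counts beside the rest of the genome, all chromosomes were cut into tiles as wide as the windows, starting at the first base. In 140 kb tiles with at least 5 listed p300 peaks over both treatments, 71.4% of 4725 had fewer with pioglitazone and 12.8% had more, with a median difference of -1. The Pim1 difference was -7 (6 with, 13 without), and 19 tiles had that difference or a larger deficit. These tiles held a median of 3 p300 peaks with and 5 without. Tiles of either antibody were not matched for their total, which limits how large a difference can be. The Nfil3 p300 difference was 0. For c-Jun, 58.1% of 2427 such tiles had fewer with pioglitazone and 22.6% more. The Nfil3 difference was 4 (7 with, 3 without), reached or passed by 16 tiles, and the Pim1 difference was -3, reached or passed by 343. In 130 kb tiles, as wide as the Socs3 window, 70.9% of 4730 had fewer p300 and 57.6% of 2295 fewer c-Jun peaks with pioglitazone. The Socs3 difference was -1 for both antibodies, which was the median of each. By number of peaks Socs3 stood high, and so did Pim1 without pioglitazone. As many p300 peaks as the 12 with pioglitazone at Socs3 were found in 4 tiles and as many as its 13 without in 23, of 11017 tiles with any peak. The Socs3 c-Jun counts were reached in 31 tiles with and 41 without. Of 10493 tiles of 140 kb, 29 reached the 13 p300 and 18 the 9 c-Jun peaks at Pim1 without pioglitazone. Its 6 p300 peaks with it were reached in 743. The 7 c-Jun peaks at Nfil3 with pioglitazone were reached in 45 tiles, and its 3 without in 2511. The windows were placed on dense loci and the tiles on a fixed grid, so these numbers describe where the windows stand and are no test.

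**Figure D4:**
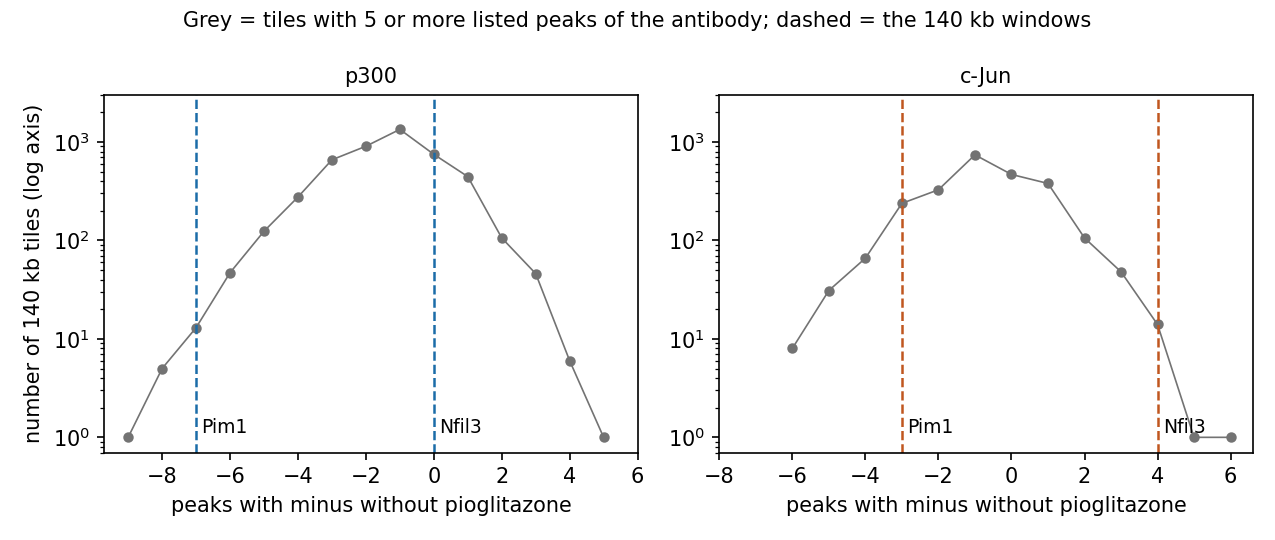
Number of 140 kb tiles (vertical log axis) by the difference in listed peaks with minus without pioglitazone (horizontal axis), for p300 and c-Jun, over tiles with at least 5 listed peaks of the antibody. Dashed lines mark the Pim1 window, at -7 for p300 and -3 for c-Jun, and the Nfil3 window, at 0 and 4.

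The window edges cut few peaks. The peak nearest inside an edge was 10.9 to 63.3 kb from it, and the nearest outside was 0.282 kb below the Nfil3 window, a p300 peak with pioglitazone at position 17574. Elsewhere the nearest outside peak was 11.0 to 117.0 kb away.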

How the data were processed

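The deposited data are 4 peak lists, 1 per ChIP library. The tools named, per the submitters' processing notes, are HOMER, SAMtools 1.9 and Bowtie2 2.3.4.3, and the build is mm9. What each tool did, the peak calling settings, the handling of duplicates and any use of the input: not given in the sources used here. The deposited score is 1 for every peak and was not used. Peaks have a fixed width per list: 227 bp and 247 bp for p300 with and without pioglitazone, 235 bp and 249 bp for c-Jun. Starts were converted to count from 1.

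Overlaps were computed in Python (version 3.11.15; numpy 2.4.6, pandas 2.3.3, scipy 1.17.1, matplotlib 3.10.9), tested on simulated data, and checked against bedtools (version 2.31.1), which gave equal numbers in 24 of 24 comparisons. Intervals are exact (Clopper-Pearson) at 95% and cover counting error only. The sites named one by one are those in all 4 lists, the first-placed peak of each list and, for each antibody and window, up to 3 lost and 3 gained peaks first in their list; others named were chosen after their values were seen. The members, windows and lists were chosen with earlier results of these data known. Alternatives were the first 50% of rows, equal list lengths, windows changed by 10 kb, overlap of 50% and centres within 500 bp. Other genes of the pathway were not analysed here, since no mm9 annotation was used. RefSeq promoter sequences are of build GRCm38.p6, and all 3 genes matched by symbol.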

Additional observations from a re-analysis of the deposited data

Results flagged for a closer look

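At 2 sites the antibodies were listed in opposite treatments. The Socs3 site at 117774024 to 117774346 held p300 with pioglitazone only, at position 18670, and c-Jun without it only, at position 10845. Sites with p300 with pioglitazone only and c-Jun without it only made up 0.995% of the merged sites of the series. The Nfil3 site at 53080820 to 53081100 held c-Jun with pioglitazone only, at position 3551, and p300 without it only, at position 8998, a kind that made up 1.75%. At Nfil3 a p300 peak with pioglitazone lay 355 bp from the lost one, so with centres within 500 bp counted as shared p300 is in both treatments there. With a single library per group these differences were not tested.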

How the results depend on the processing

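Over 36 counts (peaks, retained, lost and gained peaks, and c-Jun peaks overlapping p300), 144 values were computed under other settings, and 128 stayed within 1.5 times the count reported. Windows shortened or lengthened by 10 kb moved 0 of 12 counts beyond that, which the peak positions fixed in advance. No peak inside a window was nearer than 10.9 kb to an edge, so shortening could drop none. Lengthening changed only the p300 counts at Nfil3, from 6 to 7 in each treatment. These values are part of the 128 and are no check of the counts. Equal list lengths moved 1 of 36, the c-Jun peaks gained at Pim1, to 1. The gained and lost p300 counts at Nfil3 depend on the overlap rule. They were 2 gained and 2 lost at an overlap of 50% of both peaks, and 0 gained and 0 lost with centres within 500 bp. Keeping the first 50% of rows moved 11 of 36. At Socs3 p300 peaks with pioglitazone became 7, gained p300 peaks 2, c-Jun peaks without pioglitazone 5 and lost c-Jun peaks 2. c-Jun at Socs3 then had 7 peaks with and 5 without, a turn of direction. At Pim1 c-Jun peaks overlapping p300 without pioglitazone became 4. At Nfil3 c-Jun peaks with pioglitazone became 3, gained c-Jun peaks 2, retained c-Jun peaks 1, c-Jun peaks with pioglitazone overlapping p300 1, gained p300 peaks 0 and lost p300 peaks 2, and p300 had 4 with and 6 without. The p300 deficit at Pim1 kept its direction, with 5 with and 10 without. The first 50% of rows still takes more rows from the longer p300 list without pioglitazone. The window was also chosen with its counts known, so the kept direction is no independent support. No paired analysis was possible because each group is 1 library and the labels give no replicate numbers. Unknown depth limits every count.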
